A study of Homo sapiens with 6 samples.

Results

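Integrin and laminin genes were compared between Caki2+PBRM1 and Caki2+Vector cells, by receptor heterodimer and by ligand. The members were all genes with an integrin alpha, integrin beta or laminin chain symbol, 38 of the 25369 genes in the files: 18 integrin alpha, 8 integrin beta, 5 laminin alpha, 4 laminin beta and 3 laminin gamma chains. Caki2 is a human cell line of clear cell renal cell carcinoma without PBRM1 protein, the chromatin-targeting subunit of the PBAF remodeling complex. It carried either an empty doxycycline-inducible lentiviral vector (Caki2+Vector, 3 samples) or the same vector with PBRM1 (Caki2+PBRM1, 3 samples), and all 6 cultures received doxycycline at 2 µg/mL. Poly(A) RNA was sequenced, and the study asked which genes respond when PBRM1 is re-expressed. Each group comes from 1 engineered line, and the study calls A, B and C biological replicates. Nothing in the labels says what separated them, so the p-values measure the spread between these samples.

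Integrins are receptors made of 1 alpha and 1 beta chain that span the plasma membrane and tie the extracellular matrix to the actin cytoskeleton. The pair sets the ligand: some heterodimers bind collagen, some bind laminin, and others bind the RGD motif of fibronectin, vitronectin or the latent form of TGF-beta. Laminins are trimers of an alpha, a beta and a gamma chain that form the sheet of the basement membrane on which renal tubule epithelium rests.

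The samples held 7312955 to 10835355 reads on genes, and all values below are normalized counts, the reads on a gene divided by a size factor of its sample, given in the order A, B and C. Gene positions are those of GENCODE on GRCh37. PBRM1 itself had 195, 182 and 182 in Caki2+Vector and 2432, 2521 and 2682 in Caki2+PBRM1 (limma log2 fold change 3.76, SE 0.056, adjusted p = 3.33e-29), so the groups stood as their labels say. The cells lack the protein and not all of the transcript. Renal epithelial markers were present, 13 of 15 passing the filter used below, with summed levels of 33644.7 to 34610.7 (Caki2+Vector) and 34249.1 to 35194.5 (Caki2+PBRM1), while CA9 and LRP2 stayed at 15.2 or less. Of 14 leukocyte and platelet markers 2 passed (CD68 and ITGAM), with CD3E, CD3D, MS4A1, PF4, PPBP and GP9 at 0 in every sample, and 0 of 8 endothelial and 3 of 8 fibroblast markers passed. The library Caki2+Vector A stood apart from its group. Its counts differed from those of Caki2+Vector B and C with a chi-square per degree of freedom of 3.09 and 2.84, against 1.34 between B and C and 1.19 to 1.22 within Caki2+PBRM1. Where leaving it out changed a call, or moved a log2 fold change given below by over 1.5 times, both values are given.

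The 4 integrin chains with the highest counts (ITGB1, ITGAV, ITGB3 and ITGA3) were upregulated upon PBRM1 re-expression, by 1.15-fold to 1.54-fold. The other integrins moved in both directions, as did the laminins. A gene was tested when 3 or more samples reached a normalized count of 10, which held for 32 members (21 integrins and 11 laminins) and 13303 genes in all. With limma on log2(normalized count + 1) and a Benjamini-Hochberg adjusted p under 0.05 over all tested genes, 13 of the 32 members were upregulated and 6 were downregulated. The background was 16.2% of all tested genes upregulated and 13.0% downregulated. Against it stood 42.9% and 14.3% of the tested integrins (9 and 3) and 36.4% and 27.3% of the tested laminins (4 and 3). Without Caki2+Vector A 5 integrins were downregulated, and without Caki2+PBRM1 B or C 2 laminins were upregulated. The median log2 fold change was 0.20 over the integrins, 0.21 over the laminins and -0.004 over all tested genes, and the median SE was 0.073 for the members and 0.083 for all genes. The values of the lines did not overlap for 15 members that were higher in Caki2+PBRM1 and 8 that were lower, where 22.1% and 19.6% of all tested genes had such a separation. The changes were small, and LAMA1 alone among the members went beyond 2-fold. Reads on the members made up 0.846% to 0.873% of all reads in Caki2+Vector, against 0.932% to 0.940% in Caki2+PBRM1. In these bulk samples, fewer cells of a kind and less RNA per cell cannot be told apart.

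**Figure D1:**
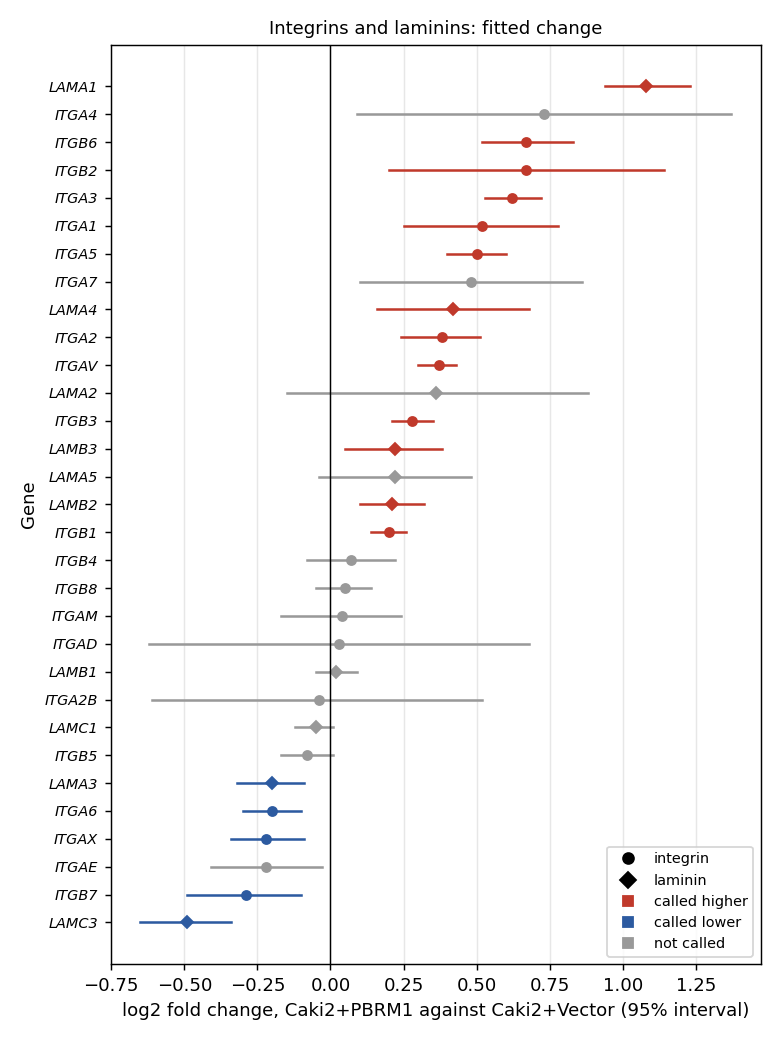
Fitted log2 fold change of Caki2+PBRM1 against Caki2+Vector (x axis) with its 95% interval for the tested integrin (circles) and laminin (diamonds) genes reported here, ordered by size. Red marks genes upregulated and blue genes downregulated at an adjusted p under 0.05 (limma), and grey those that did not pass. LAMA1 at 1.08 stands above all others, and LAMC3 at -0.49 is the lowest.

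The promoters of the members with the clearest changes are printed here, because these genes changed in the same 6 samples and a reader can see how unlike their upstream sequences are. They are the 3 genes that rose the most and the gene that fell the most among members called under all 16 alternative fits. Each is the stretch within 250 bases before the MANE Select start (GRCh37, GENCODE) that lies before every annotated transcript of the gene, written 5′ to 3′ on the gene's strand: LAMA1 at chr18:7117797-7118046, minus strand, ITGB6 at chr2:161056825-161057033, minus strand, ITGA3 at chr17:48133224-48133331, plus strand, and LAMC3 at chr9:133884311-133884560, plus strand. Capitals mark matches to the GC box GGGCGG, bound by SP1, or to the hypoxia response core ACGTG, on either strand.
LAMA1: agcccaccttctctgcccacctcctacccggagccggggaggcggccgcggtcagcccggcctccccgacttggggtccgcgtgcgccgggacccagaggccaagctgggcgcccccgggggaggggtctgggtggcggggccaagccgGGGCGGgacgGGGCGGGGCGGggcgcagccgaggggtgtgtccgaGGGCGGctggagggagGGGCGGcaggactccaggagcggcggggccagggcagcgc
ITGB6: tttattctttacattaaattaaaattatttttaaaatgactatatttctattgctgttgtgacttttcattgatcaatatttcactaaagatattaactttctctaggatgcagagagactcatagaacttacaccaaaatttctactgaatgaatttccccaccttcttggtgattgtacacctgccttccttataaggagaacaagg
ITGA3: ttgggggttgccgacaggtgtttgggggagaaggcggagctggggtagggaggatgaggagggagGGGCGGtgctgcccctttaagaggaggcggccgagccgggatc
LAMC3: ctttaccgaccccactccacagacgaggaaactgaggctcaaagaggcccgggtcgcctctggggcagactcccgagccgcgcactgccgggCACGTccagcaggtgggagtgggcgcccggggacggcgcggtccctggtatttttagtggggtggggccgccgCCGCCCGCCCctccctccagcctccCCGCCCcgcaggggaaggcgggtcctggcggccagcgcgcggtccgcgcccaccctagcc
The LAMA1 stretch (250 bases) was 80.4% G and C with 5 GC boxes, and the LAMC3 stretch (250 bases) was 74.4% with 3 GC boxes and 1 hypoxia response core. The ITGB6 stretch (209 bases) was 30.1% G and C without a match. The ITGA3 stretch (108 bases) was 67.6% with 1 GC box. The stretches differ in length, so their numbers of matches are not directly comparable. Over the whole 250 bases, the GC box was in 23 of the 38 members (8 of the 13 upregulated, 5 of the 6 downregulated) and in 60.5% of 17544 promoters. The AP-1 motif TGANTCA was in 4 members (0 of the 13 upregulated, 2 of the 6 downregulated), against 4.7% of promoters. The core ACGTG was in 3 members (0 of the 13 upregulated, and ITGA6 and LAMC3 of the 6 downregulated), against 20.6% of promoters. The TATA box TATAAA was in 0 members, against 8.9% of promoters. These motifs may overlap one another, and a match in these windows is a description of letters only.

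Both collagen receptors whose chains could be tested were upregulated on both sides of the heterodimer. Collagen is bound by ITGA1, ITGA2, ITGA10 and ITGA11, each paired with ITGB1, the chain shared by most integrins. ITGB1 (chr10:33176201-33294720, minus strand) had 17708, 17279 and 17996 in Caki2+Vector and 20389, 20239.6 and 20107 in Caki2+PBRM1 (log2 fold change 0.20, SE 0.028, adjusted p = 3.23e-06). The groups were separate, and the rise of 1.15-fold was small beside the level. ITGA1 had 129.7, 133 and 88.7 in Caki2+Vector and 153, 178 and 167 in Caki2+PBRM1 (log2 fold change 0.52, SE 0.128, adjusted p = 0.00316), and ITGA2, the platelet and epithelial collagen receptor chain, had 343, 368 and 364 in Caki2+Vector and 473, 453 and 470.0 in Caki2+PBRM1 (log2 fold change 0.38, SE 0.066, adjusted p = 4.77e-05). In both genes every Caki2+PBRM1 sample was above every Caki2+Vector sample, with Caki2+Vector C the lowest for ITGA1. Without Caki2+Vector C the log2 fold change of ITGA1 was 0.33 (limma adjusted p = 0.0254). ITGA10 (3.6 to 8.0) and ITGA11 (0 to 1.2) did not reach the filter in any group. Per kilobase of MANE Select transcript, ITGB1 had 4729 normalized counts in Caki2+Vector, against 45.7 for ITGA2 and 10.9 for ITGA1, so the alpha chain was the scarcer transcript of each collagen pair.

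Among the laminin receptors, ITGA3 and ITGA6 moved in opposite directions. Laminin is bound by ITGA3, ITGA6 and ITGA7 with ITGB1, and by ITGA6 with ITGB4, the receptor of hemidesmosomes that anchors epithelium to intermediate filaments. ITGA3 (chr17:48133332-48167845, plus strand) had 3914, 4555 and 4547 in Caki2+Vector and 6725, 6549 and 6737 in Caki2+PBRM1 (log2 fold change 0.62, SE 0.046, adjusted p = 2.14e-09, 1.54-fold). Caki2+Vector A was the lowest sample, but the groups were far apart. The log2 fold change of ITGA3 stayed between 0.55 and 0.66 with any 1 library left out. ITGA6 had 1165, 1087 and 1096 in Caki2+Vector and 943, 968 and 1001 in Caki2+PBRM1 (log2 fold change -0.20, SE 0.049, adjusted p = 0.00227), and the lowest Caki2+Vector sample was above the highest Caki2+PBRM1 sample. ITGB4, the partner of ITGA6 alone, had 315, 350.5 and 394 in Caki2+Vector and 370.4, 365 and 373 in Caki2+PBRM1 (log2 fold change 0.07, SE 0.076, adjusted p = 0.53, 95% interval -0.08 to 0.22), with the Caki2+PBRM1 values inside the range of Caki2+Vector, and without Caki2+Vector A it stood at -0.009. ITGA7, the muscle laminin receptor chain, was scarce at 29.3, 33.1 and 32.4 in Caki2+Vector and 45.5, 49.8 and 38.6 in Caki2+PBRM1. Its groups did not overlap, and its adjusted p of 0.051 by limma missed the threshold. ITGA7 passed with edgeR (0.0472), with a pseudocount of 4 (0.0479) and with the filter on every sample (0.0457). Every other alternative fit missed the threshold, among them DESeq2 (0.209) and limma with any 1 library left out (0.0526 to 0.198). On the per-kilobase scale, the ratio of ITGA3 to ITGA6 was 4, 4.98 and 4.94 in Caki2+Vector and 8.48, 8.05 and 8 in Caki2+PBRM1. That is a change from 4.64 ± 0.56 to 8.18 ± 0.26 (SD, n = 3), or 1.76-fold, with an exact two-sided permutation p of 0.1, the smallest that 3 against 3 can give. The share of ITGA3 in the 3 laminin-binding alpha chains went from 81.6% ± 1.9 to 88.5% ± 0.3, and that of ITGA6 from 17.7% ± 1.9 to 10.8% ± 0.31 (SD, n = 3).

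The RGD-binding receptors formed the largest class, and 4 of its 7 tested heterodimers had both chains upregulated: ITGA5/ITGB1, ITGAV/ITGB1, ITGAV/ITGB3 and ITGAV/ITGB6. In the other 3 (ITGAV/ITGB5, ITGAV/ITGB8 and ITGA2B/ITGB3) 1 chain was upregulated and the other did not pass. These pairs share ITGAV, ITGB1 and ITGB3, so they are not independent of one another. ITGA5, whose pair with ITGB1 is the classical fibronectin receptor, had 1200.4, 1307 and 1238 in Caki2+Vector and 1674, 1790.1 and 1836 in Caki2+PBRM1 (log2 fold change 0.50, SE 0.047, adjusted p = 1.25e-09). ITGAV (chr2:187454737-187545628, plus strand), the alpha chain of 5 heterodimers, had 9372, 8712 and 9219 in Caki2+Vector and 11811, 11720.2 and 11667 in Caki2+PBRM1 (log2 fold change 0.37, SE 0.032, adjusted p = 3.53e-10). For both alpha chains all Caki2+PBRM1 samples were above all Caki2+Vector samples, and the 3 ITGAV values of Caki2+PBRM1 lay close together.

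The beta partners of ITGAV differed from one another. ITGB3, which makes the vitronectin receptor with ITGAV, had 6358, 6436 and 6158 in Caki2+Vector and 7709, 7756 and 7562 in Caki2+PBRM1 (log2 fold change 0.28, SE 0.033, adjusted p = 9.14e-08). ITGB6 (chr2:160956178-161056824, minus strand), an epithelial chain whose heterodimer activates latent TGF-beta, had 281, 259.8 and 252 in Caki2+Vector and 417, 468 and 385 in Caki2+PBRM1 (log2 fold change 0.67, SE 0.077, adjusted p = 6.18e-08), a 1.60-fold rise with separate groups. ITGB5, the partner in a further vitronectin receptor, had 2493, 2798 and 2704 in Caki2+Vector and 2512, 2523 and 2519 in Caki2+PBRM1 (log2 fold change -0.08, SE 0.042, adjusted p = 0.157). Caki2+Vector A lay below all Caki2+PBRM1 samples and the other Caki2+Vector samples lay above them, so the ITGB5 groups overlapped. Without that library the log2 fold change was -0.13 with an adjusted p of 0.00218 by limma, and without Caki2+Vector B it was -0.04 (0.503). ITGB8, also a partner in activating latent TGF-beta, had 2201, 1917 and 2069.9 in Caki2+Vector and 2171, 2105 and 2102 in Caki2+PBRM1 (log2 fold change 0.05, SE 0.045, adjusted p = 0.491, 95% interval -0.05 to 0.14). Its 3 Caki2+PBRM1 values lay within the Caki2+Vector range. Without Caki2+Vector A its log2 fold change was 0.09 (limma adjusted p = 0.0473), and without Caki2+Vector B it was -0.01. Of the summed per-kilobase level of these 4 beta chains, ITGB3 held 55.2%, 54.6% and 53.7% in Caki2+Vector and 59.1%, 59.1% and 59.0% in Caki2+PBRM1, and ITGB5 held 29.0%, 31.8% and 31.5% and then 25.8%, 25.7% and 26.3%. The share of ITGB6 went from 2.92% ± 0.18 to 4.17% ± 0.36 (SD, n = 3). These 3 shares did not overlap between groups (exact permutation p = 0.1, the smallest possible), while that of ITGB8 did, at 11.8% ± 0.95 and 10.8% ± 0.2 (SD, n = 3). ITGA2B, the platelet fibrinogen receptor chain, stayed between 12.4 and 21.8, and ITGA8, an RGD receptor chain of kidney mesenchyme, was at 0.9 in Caki2+Vector A and at 0 in the other 5 samples.

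**Figure D2:**
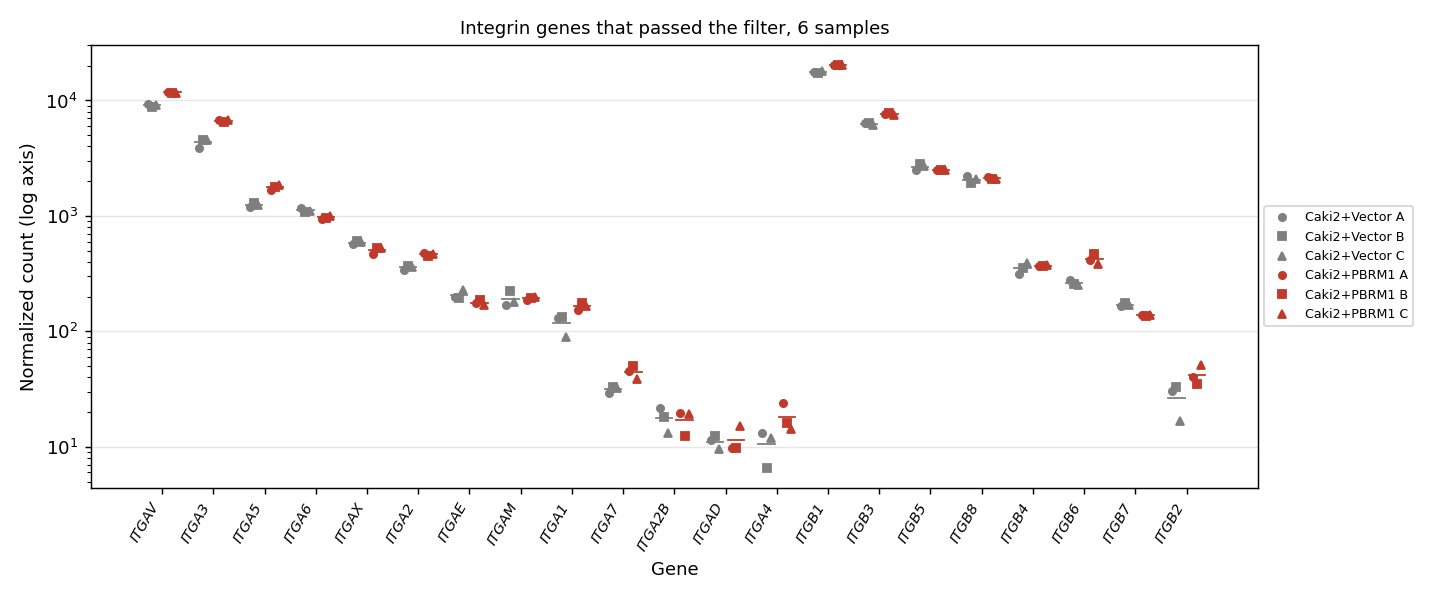
Normalized count (y axis, log scale) of the 21 tested integrin genes in each of the 6 samples, with alpha chains at left and beta chains at right, each ordered by level. Grey symbols are Caki2+Vector and red symbols Caki2+PBRM1, the shape gives the replicate letter, and the short line is the group mean. ITGB1, ITGAV, ITGB3 and ITGA3 are the 4 highest, each with the red symbols above the grey.

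The integrin chains of leukocytes were mostly scarce, and their heterodimers showed no common direction. ITGAX, an alpha chain of myeloid cells, was the highest of them, with 567, 602 and 596 in Caki2+Vector and 469, 524 and 527 in Caki2+PBRM1 (log2 fold change -0.22, SE 0.062, adjusted p = 0.00842). All Caki2+PBRM1 samples were below all Caki2+Vector samples. Without Caki2+PBRM1 A, the lowest sample, its log2 fold change was -0.16 and the limma adjusted p 0.0901. ITGB2, the only known partner of ITGAX, had 30.3, 33.1 and 16.8 in Caki2+Vector and 40.1, 34.7 and 51.2 in Caki2+PBRM1 (log2 fold change 0.67, SE 0.230, adjusted p = 0.029). That call rested on few reads: it was lost with DESeq2 (adjusted p = 0.135) and in limma without Caki2+Vector C (0.198, log2 fold change 0.38), Caki2+PBRM1 A (0.0743) or Caki2+PBRM1 C (0.174). Per kilobase, ITGAX had 126 normalized counts in Caki2+Vector and ITGB2 had 9.52, so the alpha chain was the more abundant transcript of this pair, unlike in the pairs of ITGB1. ITGB7, the beta chain of gut-homing lymphocytes, had 165, 175 and 170.2 in Caki2+Vector and 139, 137 and 139 in Caki2+PBRM1 (log2 fold change -0.29, SE 0.096, adjusted p = 0.0201). Its call was lost with DESeq2 (adjusted p = 0.112) and in limma without Caki2+Vector B (0.0655), Caki2+PBRM1 B (0.0629) or Caki2+PBRM1 C (0.0544). Moreover 52.4% of the MANE Select transcript of ITGB7 overlaps exons of ZNF740 on the other strand, which had a log2 fold change of 0.18 (limma adjusted p = 0.0405). The strand setting of the counting is not given in the sources used here, so the reads of such gene pairs may not be told apart.

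The remaining leukocyte chains did not pass. ITGAE, which pairs with ITGB7 to bind E-cadherin, had 199, 194 and 228 in Caki2+Vector and 177, 188 and 168 in Caki2+PBRM1 (log2 fold change -0.22, SE 0.092, adjusted p = 0.0756). Its groups did not overlap, and the log2 fold change was -0.24 without Caki2+Vector A (limma adjusted p = 0.0478) and -0.15 without Caki2+Vector C (0.304). ITGA4, the chain that binds VCAM1, had 13.3, 6.6 and 12 in Caki2+Vector and 23.8, 16 and 14.3 in Caki2+PBRM1 (log2 fold change 0.73, SE 0.313, adjusted p = 0.0789), and its log2 fold change was 0.90 without Caki2+Vector A (limma adjusted p = 0.0356), 0.45 without Caki2+Vector B (0.322) and 0.52 without Caki2+PBRM1 A (0.323). CERKL, whose exons overlap 41.5% of the MANE Select transcript of ITGA4 on the other strand, went from 9.5, 18.0 and 19.2 to 31.4, 37.3 and 42.0 (limma log2 fold change 1.25, adjusted p = 0.000343), and its part in the ITGA4 values was not tested. ITGAM, of macrophages and neutrophils, stayed between 169.5 and 223.9, and ITGAD between 9.6 and 15.1. ITGAL (1.9 to 8.7) and ITGA9 (3.6 to 8.5), a tenascin receptor chain, did not reach the filter. Of the 24 known heterodimers, 19 had both chains tested. Both were upregulated in 7, 1 chain alone was upregulated in 7, the chains moved in opposite directions in 2 (ITGA6/ITGB1 and ITGAX/ITGB2), 1 chain alone was downregulated in 3, and both were downregulated in 0. At an unadjusted p under 0.05 in limma 1 pair, ITGAE/ITGB7, had both chains lower, and with edgeR or DESeq2 0 did. The places of ITGAX/ITGB2, ITGAM/ITGB2, ITGAD/ITGB2, ITGA4/ITGB7 and ITGAE/ITGB7 in these counts depend on the calls of ITGB2 and ITGB7. Those calls were lost with DESeq2 (adjusted p = 0.135 and 0.112), so the counts other than that of both chains upregulated are less firm. The pairs share chains, ITGB1 above all, and are not independent of one another.

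In summed per-kilobase levels, beta chains outnumbered alpha chains in both lines. The 8 beta chains reached 6809 ± 70.0 normalized counts per kilobase in Caki2+Vector and 7734 ± 56.2 in Caki2+PBRM1, and the alpha chains 2963 ± 58.7 and 3910 ± 24.8 (SD, n = 3). Among alpha chains ITGAV was first in both lines (1293 and 1667), followed by ITGA3 (888 and 1364), ITGA5 (294 and 416) and ITGA6 (192 and 167). Among beta chains ITGB1 was first (4729 and 5420), followed by ITGB3 (1063 and 1292), ITGB5 (600.2 and 567) and ITGB8 (229.8 and 237). Divided by the merged length of all annotated exons instead, ITGA3 passed ITGAV in Caki2+PBRM1 (681 and 607) but not in Caki2+Vector (443 and 471), so the first place among alpha chains depends on the length used.

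LAMA1 had the largest change of any laminin or integrin gene. It encodes the alpha chain of laminin-111, the laminin of early embryonic basement membranes, and lies at chr18:6941741-7117796, minus strand, just downstream of the GC-rich stretch printed above. Its normalized counts were 217, 225 and 219 in Caki2+Vector and 464, 458 and 481 in Caki2+PBRM1 (log2 fold change 1.08, SE 0.071, adjusted p = 5.44e-13, 2.12-fold, 95% interval 0.94 to 1.23). Both groups were tight, with a gap between them far wider than either spread. The log2 fold change stayed between 1.06 and 1.10 with any 1 library left out. LAMA3, the alpha chain of laminin-332, went the other way at 727, 789.8 and 780.3 in Caki2+Vector and 648, 682 and 663 in Caki2+PBRM1 (log2 fold change -0.20, SE 0.055, adjusted p = 0.00508), without overlap. LAMA4, typical of endothelium and mesenchyme, had 81.4, 93.5 and 71.9 in Caki2+Vector and 103, 108 and 118 in Caki2+PBRM1 (log2 fold change 0.42, SE 0.127, adjusted p = 0.0136). Of 8 endothelial markers 0 passed the filter, and of 8 fibroblast markers 3 did (PDGFRA, PDGFRB and COL1A1). The source of the LAMA4 reads was not tested. The LAMA4 call was lost with DESeq2 (adjusted p = 0.0851) and in limma without Caki2+Vector C (0.0731) or Caki2+PBRM1 C (0.0829).

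LAMA5, the main alpha chain of adult epithelial basement membranes, had 4619.8, 5939 and 6059.9 in Caki2+Vector and 6222, 6517 and 6457 in Caki2+PBRM1 (log2 fold change 0.22, SE 0.107, adjusted p = 0.196). Its groups did not overlap, with Caki2+Vector A by far the lowest, and without that library the log2 fold change fell to 0.09 while the limma adjusted p fell to 0.00636. LAMA2, the muscle laminin chain, was scarce at 33.1, 36.8 and 15.6 in Caki2+Vector and 35.7, 31.1 and 37.8 in Caki2+PBRM1 (log2 fold change 0.36, SE 0.249, adjusted p = 0.294), and without Caki2+Vector C its log2 fold change was -0.01. Per kilobase, LAMA5 stood at 485 normalized counts (Caki2+Vector) and 560.0 (Caki2+PBRM1), LAMA3 at 71.9 and 62.4, and LAMA1 at 22.9 and 48.5. The LAMA3 level divides by its long isoform and is understated if the cells make the short one. On this scale LAMA1 held 4.41%, 3.68% and 3.57% of all laminin alpha chains in Caki2+Vector and 7.16%, 6.78% and 7.15% in Caki2+PBRM1, while LAMA3 went from 12.2% ± 1.0 to 9.04% ± 0.11 (SD, n = 3). LAMA5 held 81.5% and 81.2%. The order of LAMA5, LAMA3 and LAMA1 was the same in both lines.

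**Figure D3:**
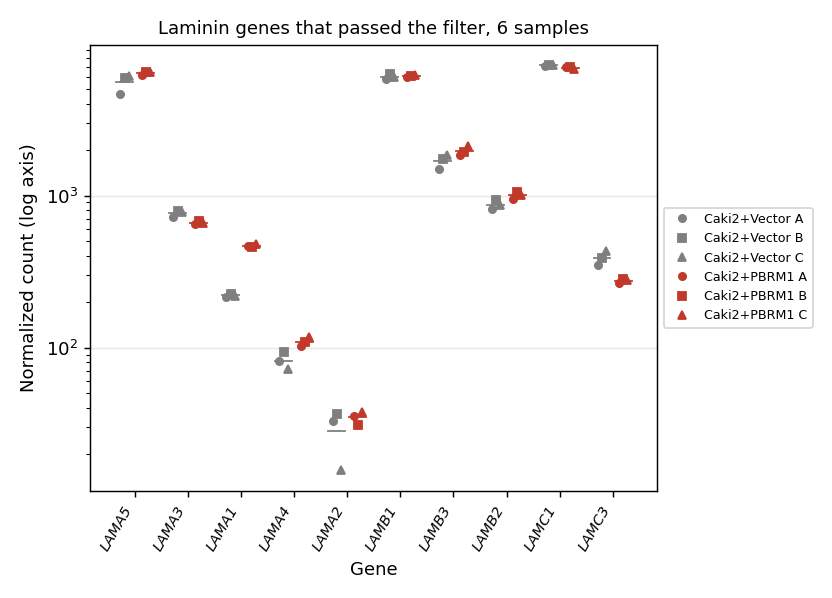
Normalized count (y axis, log scale) of the tested laminin genes reported here in each of the 6 samples, as alpha, beta and gamma chains from left to right. Grey symbols are Caki2+Vector and red symbols Caki2+PBRM1, the shape gives the replicate letter, and the short line is the group mean. LAMA1 shows the widest gap, LAMA3 and LAMC3 have the red symbols lower, and Caki2+Vector A is the low grey circle of LAMA5.

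Of the laminin beta chains 2 were upregulated. LAMB1, the common beta chain, had 5847, 6269.5 and 5966 in Caki2+Vector and 6013, 6109.8 and 6175 in Caki2+PBRM1 (log2 fold change 0.02, SE 0.035, adjusted p = 0.751, 95% interval -0.05 to 0.09), with wide overlap, and stood at -0.004 without Caki2+Vector A. LAMB2, the beta chain of the glomerular basement membrane, had 816, 928 and 865 in Caki2+Vector and 946, 1057 and 1009.7 in Caki2+PBRM1 (log2 fold change 0.21, SE 0.055, adjusted p = 0.00463). Its groups were separate but close, and without Caki2+PBRM1 B the limma adjusted p was 0.059. LAMB3, the beta chain of laminin-332, had 1486, 1729.9 and 1858 in Caki2+Vector and 1842, 1941 and 2108 in Caki2+PBRM1 (log2 fold change 0.22, SE 0.075, adjusted p = 0.048). Caki2+Vector C was above Caki2+PBRM1 A, and the call was lost with DESeq2 (0.146), without a filter (0.0514) and in limma without Caki2+Vector B (0.0804), Caki2+PBRM1 B (0.0788) or Caki2+PBRM1 C (0.108). Without Caki2+Vector A the log2 fold change of LAMB3 was 0.13 (limma adjusted p = 0.0114). LAMB4 stayed between 2.4 and 5.0, below the filter. Among beta chains 0 were downregulated by limma, edgeR or DESeq2, and 0 at an unadjusted p under 0.05 in limma.

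Among the gamma chains LAMC3 (chr9:133884561-133969860, plus strand), found in laminin-213, laminin-423 and laminin-523, was downregulated. It had 349, 391 and 432 in Caki2+Vector and 266, 284 and 279 in Caki2+PBRM1 (log2 fold change -0.49, SE 0.078, adjusted p = 1.16e-05), a level 1.41-fold higher in Caki2+Vector. LAMC1, the gamma chain of most laminins, had 7143, 7215 and 7152 in Caki2+Vector and 6996, 6945 and 6805 in Caki2+PBRM1 (log2 fold change -0.05, SE 0.032, adjusted p = 0.239). Every Caki2+PBRM1 value of LAMC1 was below every Caki2+Vector value, by little, and quantile normalization brought it past the threshold (log2 fold change -0.12, limma adjusted p = 0.00809). The summed beta chains went from 1641 ± 81.7 to 1746 ± 53.3 normalized counts per kilobase (SD, n = 3).

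By trimer, laminin-332 had its alpha chain LAMA3 downregulated and its beta chain LAMB3 upregulated. It is the anchoring laminin of hemidesmosomes and a ligand of ITGA3/ITGB1 and ITGA6/ITGB4. The LAMB3 groups overlapped, and its call was lost in several alternative fits, among them DESeq2 (adjusted p = 0.146). The per-kilobase ratio of LAMA3 to LAMB3 went from 0.172 ± 0.013 to 0.128 ± 0.008 (SD, n = 3, exact permutation p = 0.1, the smallest possible). In laminin-511, the main laminin of mature epithelium, 0 of the 3 chains passed with limma, edgeR or DESeq2, and 0 did at an unadjusted p under 0.05 in limma. In laminin-521 LAMB2 alone was upregulated, and in laminin-111 LAMA1 alone, which was also the scarcest chain of that trimer in both lines. In laminin-411 and laminin-421 the scarcest chain was LAMA4.

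**Figure D4:**
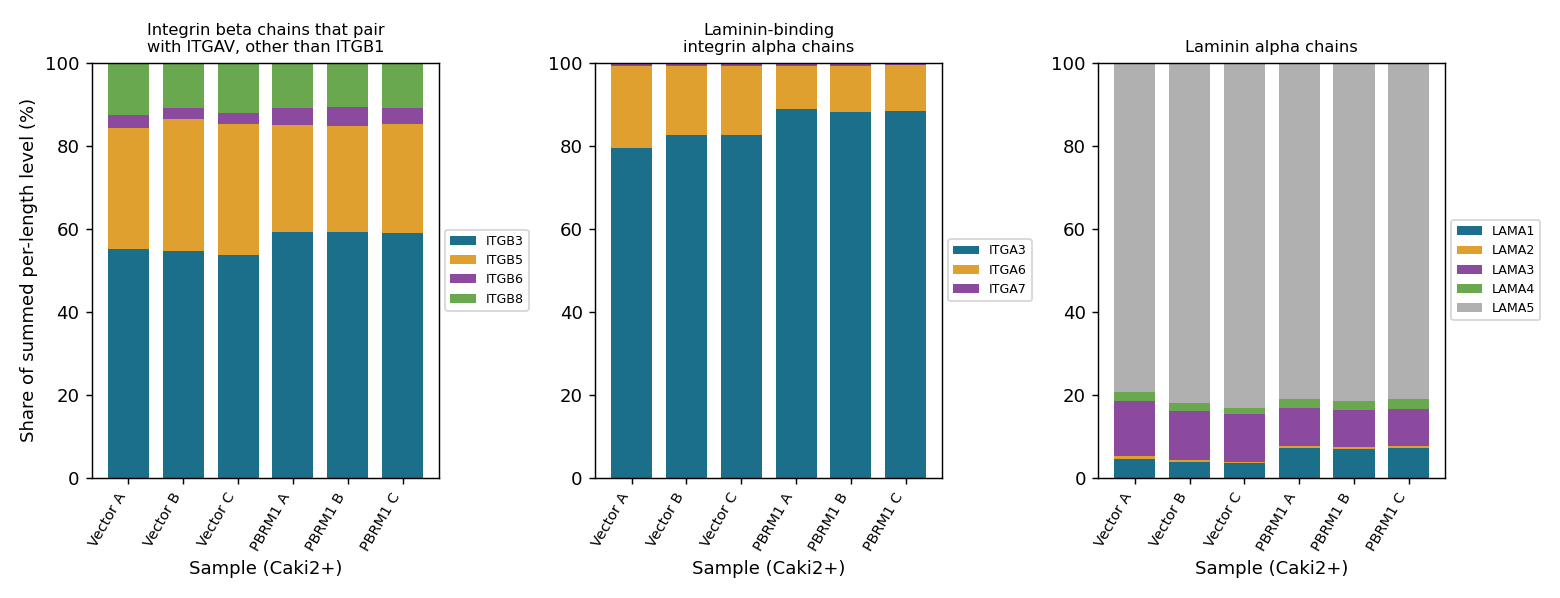
Share of each chain in the summed per-kilobase level of its class (y axis, percent) in each of the 6 samples, for the ITGAV partners other than ITGB1 (left), the laminin-binding integrin alpha chains (middle) and the laminin alpha chains (right). In Caki2+PBRM1 the ITGB3, ITGA3 and LAMA1 segments take 59.0% to 59.1%, 88.2% to 88.8% and 6.78% to 7.16%, all above the Caki2+Vector bars.

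Genes around these receptors were counted in lists of matrix ligands, basement membrane partners and focal adhesion proteins. The lists were chosen with earlier results of these data known, so their shares beside those of all tested genes are a description only. Of 19 tested integrin ligands other than laminins, 9 were upregulated and 0 downregulated in limma, as with edgeR and DESeq2, with 1 lower at an unadjusted p under 0.05, and 3 were downregulated without Caki2+Vector A. The upregulated share was 47.4% and the downregulated share 0%, against 16.2% and 13.0% of all tested genes. Their median log2 fold change was 0.17. The largest rises were those of FBN1, the RGD-bearing microfibril protein fibrillin, with 576, 564 and 587 in Caki2+Vector and 2646, 2741 and 2603 in Caki2+PBRM1 (log2 fold change 2.21, SE 0.046, adjusted p = 1.8e-25), CTGF, a matricellular ligand of ITGAV/ITGB3, with 866, 924 and 913 in Caki2+Vector and 2374, 2266 and 2249 in Caki2+PBRM1 (log2 fold change 1.35, SE 0.045, adjusted p = 6.12e-20), and TNC, the matrix protein tenascin, with 75.7, 67.1 and 65.9 in Caki2+Vector and 170.1, 166 and 169.5 in Caki2+PBRM1 (log2 fold change 1.27, SE 0.114, adjusted p = 5.32e-10). In all 3 every Caki2+PBRM1 sample was above the highest Caki2+Vector sample. FN1, fibronectin and the ligand of ITGA5/ITGB1, is named outside the rule after its values were seen. No gene had a higher count in any of the 6 samples than FN1, with 176188, 190651 and 184887 in Caki2+Vector and 345140.1, 353498 and 346254 in Caki2+PBRM1 (log2 fold change 0.92, SE 0.024, adjusted p = 2.41e-21). Quantile normalization gives the top gene of each sample the same value and so ends that call.

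Of 22 tested basement membrane genes and laminin partners, 10 were upregulated (45.5%) and 1 was downregulated (4.55%, 2 genes without Caki2+Vector A), against 16.2% and 13.0% of all tested genes, with a median log2 fold change of 0.19. NID1, nidogen, which links laminin to collagen IV, was scarce and had 20.8, 22.7 and 15.6 in Caki2+Vector and 67.2, 68.4 and 50.4 in Caki2+PBRM1 (log2 fold change 1.61, SE 0.202, adjusted p = 3.07e-07). FRAS1, a matrix protein of the epithelial basement membrane, went from 34.3 ± 4.0 to 95.5 ± 6.0 (SD, n = 3, log2 fold change 1.46, SE 0.155, adjusted p = 1.35e-08), and SPARC, a collagen-binding matricellular protein, had 1638, 1577 and 1565 in Caki2+Vector and 3000.4, 3024 and 2967 in Caki2+PBRM1 (log2 fold change 0.91, SE 0.040, adjusted p = 3.76e-17). The downregulated gene was COL4A1, a chain of collagen IV, with 7248, 7579.9 and 7729.5 in Caki2+Vector and 5398, 5539 and 5491 in Caki2+PBRM1 (log2 fold change -0.46, SE 0.034, adjusted p = 1.12e-11). None of these 4 genes had overlapping groups. The other tested collagen IV chains, named outside the rule after their values were seen, did not fall with COL4A1 past the threshold. COL4A5 (log2 fold change 0.78, limma adjusted p = 2.38e-05) and COL4A4 (0.47, 4.2e-05) were upregulated. COL4A2 (-0.11, 0.0864) and COL4A3 (0.08, 0.675) did not pass.

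Inside the cell, 11 of 36 tested focal adhesion genes were upregulated (30.6%, against 16.2% of all tested genes) and 6 downregulated (16.7%, near the 13.0% of all tested genes). The median log2 fold change was 0.05, and without Caki2+PBRM1 B 3 genes were downregulated. NEDD9, a scaffold of the CAS family that binds focal adhesion kinase, had 25.6, 26.5 and 26.4 in Caki2+Vector and 92.1, 97.8 and 81.4 in Caki2+PBRM1 (log2 fold change 1.75, SE 0.163, adjusted p = 1.06e-09). TENC1, a tensin, had a log2 fold change of 0.54 (limma adjusted p = 0.00231), and TGFB1I1, a paxillin relative, one of 0.44 (0.000907). The largest falls were those of FERMT1, a kindlin that activates integrins, at -0.41 (limma adjusted p = 0.00176), and FBLIM1, an adaptor of integrin adhesion sites, at -0.37 (0.000139). The values of these genes did not overlap between groups.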

How the data were processed

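RNA-Seq of Caki2+Vector and Caki2+PBRM1 was analysed, with 3 samples of each, grouped and lettered by the sample labels. Per the paper and the labels, the authors aligned reads to hg19 with STAR, counted them on 25369 genes of the UCSC annotation with HTSeq and normalized them with DESeq2. Versions and the strand setting are not given in the sources used here. The values the authors deposited are a per-gene signal, the count divided by a size factor of its sample (0.834 to 1.191) without division by length. All values (100.00%, tolerance 0.01) were whole multiples of a step, so whole reads could be recovered.

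The 13303 genes that reached a normalized count of 10 in 3 or more samples were tested on log2(normalized count + 1) with limma 3.58.1 (trend, robust) in R 4.3.3, two-sided, with Benjamini-Hochberg adjustment over all 13303 and a threshold of 0.05. Fold changes on this scale understate those of low genes. On recovered reads, edgeR 4.0.16 (quasi-likelihood, TMM) called 2194 genes higher and 1836 lower, and DESeq2 1.42.0 called 1496 and 1057. Further alternatives were voom, other scalings, filters, pseudocounts and thresholds, a replicate block and leaving out each library. The limma fit alone was run on simulated counts, where it recovered 200 of 200 genes changed by a log2 fold change of 1 in size, with 6 false calls. Smaller changes, such as those of all members but LAMA1, were not simulated.

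Levels per kilobase divide by the MANE Select transcript of GENCODE on GRCh37, found for all 38 members. Shares and ratios were tested with exact permutation tests, whose smallest p is 0.1. The members, gene lists and tests were chosen with earlier results of these data known. The members were named, and from each further list the 3 largest calls in each direction without overlap between groups, apart from genes that are not reported here. Precision is limited by the spread between 3 samples per group, Caki2+Vector A above all. It is also limited by counting error at 7312955 to 10835355 reads on genes per sample. Protein sequences were not used here.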

Additional observations from a re-analysis of the deposited data

How the results depend on the processing

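Of the 19 called integrin and laminin genes, 13 kept their call under all 16 alternative fits at an adjusted p under 0.05, 6 lost it under 1 or more (ITGAX, ITGB2, ITGB7, LAMA4, LAMB2 and LAMB3), and 0 changed sign. Of the members not called, 7 passed under 1 or more and 7 changed sign. With quantile normalization ITGAD stood at -0.068 on the log2 scale. Leaving out 1 library gave log2 fold changes of -0.23 to 0.16 for ITGA2B, -0.16 to 0.13 for ITGAD, -0.044 to 0.16 for ITGAM, -0.009 to 0.15 for ITGB4, -0.006 to 0.094 for ITGB8, -0.007 to 0.59 for LAMA2 and -0.004 to 0.046 for LAMB1.

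DESeq2 and an adjusted p under 0.01 each left 2 of 4 upregulated laminins, and lowered the downregulated genes overall from 1734 to 1057 and 1025. The downregulated ligands went from 0 to 1 with quantile normalization, without a filter and with a replicate block. The cause was not tested. With 1 library left out, upregulated laminins numbered 2 to 5 (2 without Caki2+PBRM1 B or C) and downregulated integrins 2 to 5 (5 without Caki2+Vector A). Downregulated focal adhesion genes numbered 3 to 8, basement membrane genes 1 to 2 and ligands 0 to 3. The other counts stayed within 1.5 times.

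Samples of the same letter did not deviate together (correlations -0.008 to 0.014 over genes, against -0.024 to 0.017 for other letters), so the letters were not read as pairs. With the letter as a replicate block 2249 genes were higher and 1858 lower, LAMA5 passed (0.22, limma adjusted p = 0.000368), and 2 basement membrane genes were lower in place of 1. Chain shares kept their value within 1 SD in 298 of 312 alternatives, which include merged exon length, added after seeing the data, as was the order of levels on that length.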
